A study of Homo sapiens with 12 samples.

Results

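The androgen receptor coregulators described here are 8 genes that encode proteins which act with the receptor. They are p160 coactivators NCOA1, NCOA2 and NCOA3, the acetyltransferases EP300 and CREBBP, the Mediator subunit MED1, the histone demethylase KDM1A and the corepressor NCOR1. They were chosen as a list of symbols, and each symbol matched 1 Ensembl gene of the 63568 genes in the deposited table. All 8 were among the 16337 genes with at least 1 TPM (transcript abundance scaled for length and library total) in at least 2 libraries, which were the genes tested. RNA-seq was carried out on 12 libraries of LNCaP, a prostate cancer line that grew out of a lymph node metastasis and responds to androgen. At 72 h and at 144 h cells had received a non-targeting siRNA (si-NT, 2 libraries) or one of 2 siRNAs against SMARCA4 (2 libraries each), the gene that encodes BRG1, an ATPase of the SWI/SNF chromatin remodelling complex. The 4 libraries of both siRNAs formed the BRG1 depleted group of a time point, and the siRNAs are called siRNA-2 and siRNA-3 after the numbers in the table. Cells of the 144 h groups were divided and transfected again at 72 h, so that si-NT cells at 144 h had also been transfected more than once. The knock-down was transient and in 1 cell line, and the paper describes basal culture conditions for its model.

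The androgen receptor is a transcription factor that enters the nucleus on binding androgen and recruits coregulators at the enhancers of its target genes. The p160 proteins bind the receptor directly and bring in the acetyltransferases p300 and CBP, encoded by EP300 and CREBBP, which acetylate histones and the receptor itself. Mediator links the receptor complex to RNA polymerase II, with MED1 as the subunit that contacts nuclear receptors. KDM1A (LSD1) removes methyl groups from histone H3 and acts with the receptor as a coactivator or, in other complexes, as a corepressor. NCOR1 recruits histone deacetylases to nuclear receptors. NCOA2 and NCOA3 are amplified or raised in part of prostate cancers, and p160 levels have been tied to the response to androgen withdrawal.

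For a view of the regulatory sequence, start-site windows of NCOA3 and KDM1A, which passed the test at 144 h, were taken from RefSeq (GRCh38.p14). Each window reached from 250 bases before to 50 bases after the annotated start. Entries of 7 of the 8 genes were part of the search. NCOA2 also passed the test at 144 h, but no window of it was part of the search. Its start site was therefore not examined. The motifs below were searched on both strands, with overlapping matches counted: GGGCGG (the GC box), CCAAT and AGAACA (a half-site of the androgen receptor). Capitals mark the matches in the sequences, which are written 5′ to 3′ on the strand of the gene. NCOA3 lies at chr20:47501637-47501936, + strand, and KDM1A at chr1:23019218-23019517, + strand, both in GRCh38.p14.
NCOA3: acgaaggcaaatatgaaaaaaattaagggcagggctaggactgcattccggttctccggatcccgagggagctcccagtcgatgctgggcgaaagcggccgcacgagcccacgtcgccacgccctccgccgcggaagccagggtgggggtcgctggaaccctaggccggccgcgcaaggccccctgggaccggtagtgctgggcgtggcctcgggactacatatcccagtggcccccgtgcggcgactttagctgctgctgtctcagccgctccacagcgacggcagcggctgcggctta
KDM1A: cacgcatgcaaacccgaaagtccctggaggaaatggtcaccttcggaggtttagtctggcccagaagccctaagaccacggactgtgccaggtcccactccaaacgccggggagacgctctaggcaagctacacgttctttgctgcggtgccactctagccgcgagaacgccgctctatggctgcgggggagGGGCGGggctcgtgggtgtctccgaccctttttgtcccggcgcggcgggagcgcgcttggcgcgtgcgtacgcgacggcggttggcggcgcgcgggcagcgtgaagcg
The NCOA3 window held none of these motifs and the KDM1A window held 1 GC box, and both windows were 66.7% G and C. Among 35116 RefSeq windows of the same length, 45.0% held the GC box, 34.6% held CCAAT and 14.8% held AGAACA, and the median G and C content was 58.7%. A match or its absence is a description of these letters in this window.

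The target of the siRNAs was examined first. SMARCA4 (ENSG00000127616.13) was at 97.01 and 73.44 TPM in si-NT at 72 h and between 17.48 and 21.70 TPM in the 4 depleted libraries, a log2 fold change of -2.07 (limma adjusted p = 0.000538). At 144 h it was at 94.50 and 106.59 TPM in si-NT and between 11.42 and 17.44 TPM after depletion, a log2 fold change of -2.66 (limma adjusted p = 1.01e-05). The siRNAs therefore lowered their target in every labelled library. Read depth cannot be recovered from TPM, which leaves counting error unknown and the replicates as the measure of precision. Nothing in the labels says that replicates came from separate cultures, so p-values measure the spread between these libraries, which may be technical. As a check of the cell type, 6 luminal prostate markers summed to between 1252.62 and 1605.90 TPM at 72 h in both groups. At 144 h they summed to 1206.73 and 1319.58 TPM in si-NT and to between 1431.26 and 1694.34 TPM after depletion. Of the 6, 3 were called higher, against 13.6% of all genes, and 3 were not called. All depleted libraries were above si-NT for 4 of the 6, against 26.1% of all genes, and below si-NT for 1, against 22.5%. The median log2 fold change of the 6 was 0.61 at 144 h, beside 0.03 over all genes tested. The markers thus shifted mostly upward at 144 h without all moving the same way. Their part in the coregulator results was not tested. In contrast, 3 basal markers each stayed under 1 TPM in every library, the highest at 0.33 TPM. Of 8 stromal, endothelial and leukocyte markers, 6 stayed under 1 TPM in every library and 2 of these were listed at 0 throughout. The remaining markers were COL1A1, at 3.10 to 9.11 TPM, and ACTA2, at 0.13 to 1.21 TPM, and neither was called at either time point.

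Libraries stood apart before any comparison was made. Replicate 2 of siRNA-2 at 72 h had the highest value of the 4 depleted libraries for 7 of the 8 coregulators, and replicate 2 of siRNA-3 at 144 h had the lowest value for 7 of the 8. In the same libraries the median deviation of genes with a coding mRNA of 6 kb or longer, less that of genes with one of 2 kb or shorter, was 0.29 and -0.28 on the log2 scale, against -0.12 to 0.08 in the other libraries. The coregulator mRNAs are long, with a longest coding mRNA of 7.4 kb or more for 7 of the 8 and of 4.0 kb for KDM1A. The part of mRNA length in these values was not tested. Across all genes the median log2 fold change of long mRNAs was 0.09 at 72 h and -0.01 at 144 h, and that of short mRNAs 0.02 and 0.02. The change of each coregulator is therefore also given without both libraries where that moves the value by over 1.5 times or where a call was made. Both were picked by these coregulator values, so leaving them out lowers most changes at 72 h and raises most at 144 h by construction. Values without them describe this dependence and do not test the calls.

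In the 4 si-NT libraries, which carry no siRNA against SMARCA4, the coregulators covered a wide range of levels per transcript length. KDM1A was the highest at 74.9 ± 6.54 TPM (SD, n = 4), at the 88.4th percentile of the genes tested, followed by NCOR1 at 57.7 ± 5.08 TPM. MED1 was at 24.6 ± 1.84 TPM, CREBBP at 16.1 ± 2.44 TPM and EP300 at 13.5 ± 2.16 TPM. The p160 coactivators came last, with NCOA1 at 10.8 ± 0.635 TPM, NCOA2 at 9.66 ± 1.83 TPM and NCOA3 at 5.45 ± 0.452 TPM, which is the 35.1st percentile. Neighbours in this order overlapped between libraries for CREBBP and EP300, EP300 and NCOA1, and NCOA1 and NCOA2. The other neighbours, KDM1A and NCOR1, NCOR1 and MED1, MED1 and CREBBP, and NCOA2 and NCOA3, did not overlap. The levels did not shift detectably with time in the controls: none of the 8 passed the test between si-NT at 144 h and at 72 h by limma, none had an unadjusted p under 0.05, and 0.0% of all genes passed.

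**Figure D1:**
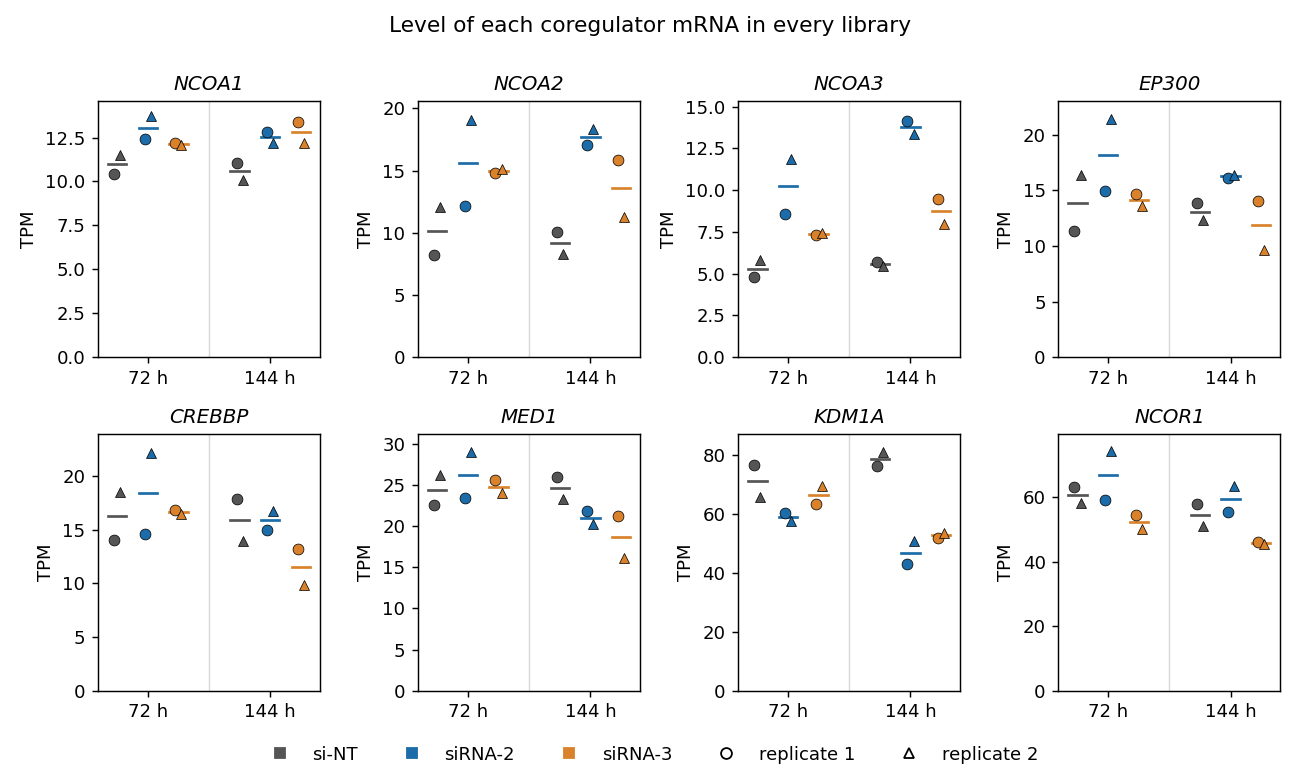
TPM of the 8 coregulators in every library (y axis, from 0) by time point and siRNA (x axis), with a point for each library, shaped by replicate, and a line at the mean of each pair. The depleted libraries of NCOA1, NCOA2 and NCOA3 all lie above si-NT at both time points, and those of KDM1A and MED1 lie below si-NT at 144 h.

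The question of the comparison was how the mRNAs of these receptor partners responded when BRG1 was depleted. Across the 8 genes, NCOA2 and NCOA3 rose and KDM1A fell at 144 h, while no coregulator passed the test at 72 h. NCOA3 showed the largest log2 fold change of the 8 at both time points, 2.01-fold higher in mean TPM at 144 h, and KDM1A was 36.7% lower. At 72 h, 0 of 8 were called higher or lower by limma, with 2 at an unadjusted p under 0.05, against 1.13% of all genes called higher and 0.557% called lower. At 144 h, 2 of 8 were called higher against 13.6% of all genes, and 1 of 8 lower against 10.8%. These shares hold for the TPM scale: scaled to the ERCC spike-ins, 0.845% of all genes were called higher and 3.76% lower at 144 h, and of the 8 coregulators 0 were called higher and 1 lower. The median log2 fold change of the 8 was 0.14 at 72 h and 0.01 at 144 h, beside 0.06 and 0.03 over all genes tested. The 8 genes thus did not move as a group, and their changes at 144 h ran from -0.65 to 0.86.

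NCOA3 (SRC-3, AIB1; ENSG00000124151.14, GRCh37 chr20:46130631-46285621, + strand) encodes a p160 coactivator with an acetyltransferase domain of its own. At 72 h it was at 4.80 and 5.80 TPM in si-NT, at 8.58 and 11.87 TPM with siRNA-2 and at 7.29 and 7.46 TPM with siRNA-3. By 144 h the controls stood at 5.71 and 5.48 TPM, siRNA-2 libraries at 14.17 and 13.37 TPM and siRNA-3 libraries at 9.47 and 7.99 TPM. Every depleted library was above both controls of its time point, and siRNA-2 libraries were above siRNA-3 libraries. The log2 fold change was 0.62 (SE 0.23) at 72 h, which did not pass the test (adjusted p = 0.222), and 0.86 at 144 h, which did (adjusted p = 0.0186, limma). Without both libraries that stood apart, the change was 0.48 at 72 h (adjusted p = 0.21) and 1.00 at 144 h (adjusted p = 0.00354). The call was lost without si-NT replicate 1 at 144 h (0.89, adjusted p = 0.0924), without si-NT replicate 2 (0.83, adjusted p = 0.129) and with scaling to the ERCC spike-ins (0.51, adjusted p = 0.393).

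NCOA2 (SRC-2, TIF2; ENSG00000140396.8, GRCh37 chr8:71022017-71316043, - strand) encodes a p160 coactivator whose mouse counterpart is known as GRIP1. At 72 h it was at 8.18 and 12.10 TPM in si-NT, at 12.12 and 19.10 TPM with siRNA-2 and at 14.82 and 15.15 TPM with siRNA-3. At 144 h it was at 10.04 and 8.33 TPM in si-NT, at 17.03 and 18.34 TPM with siRNA-2 and at 15.85 and 11.29 TPM with siRNA-3. The depleted libraries lay above both controls at each time point, at 72 h by as little as the gap between 12.10 and 12.12 TPM. The log2 fold change was 0.56 (SE 0.21) at 72 h (adjusted p = 0.244) and 0.69 at 144 h (adjusted p = 0.0352, limma). Without both libraries that stood apart the change was 0.45 at 72 h (adjusted p = 0.238) and 0.83 at 144 h (adjusted p = 0.00786). At 72 h the change was 0.30 without si-NT replicate 1 and 0.81 without replicate 2. The call at 144 h was lost with either control left out (adjusted p = 0.0924 and 0.248), with either siRNA-2 library left out (0.0737 and 0.0746) and without replicate 1 of siRNA-3 (0.0623), while the change stayed between 0.57 and 0.83. It was also lost when all genes were tested without a filter (adjusted p = 0.0819) and with scaling to the ERCC spike-ins (0.32, adjusted p = 0.607).

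NCOA1 (SRC-1; ENSG00000084676.11, GRCh37 chr2:24714123-24993571, + strand), the founding p160 member, had the smallest changes of the 3 in absolute size. At 72 h it was at 10.43 and 11.52 TPM in si-NT and at 12.39, 13.73, 12.19 and 12.07 TPM in the depleted libraries. Values at 144 h were 11.08 and 10.11 TPM in si-NT and 12.82, 12.21, 13.40 and 12.20 TPM after depletion. The groups did not overlap at either time, but the log2 fold changes of 0.18 (SE 0.10, adjusted p = 0.436) and 0.24 (95% confidence interval 0.02 to 0.45, adjusted p = 0.0987) did not pass the test (limma). At 144 h NCOA1 passed in 1 of the 23 alternative analyses (lowest adjusted p = 0.0499, limma) and changed sign in 1. All depleted libraries were above si-NT for 3 of the 8 coregulators at each time point, these being the p160 genes, against 16.3% of all genes at 72 h, 26.1% at 144 h and 10.2% at both.

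Summed TPM of NCOA1, NCOA2 and NCOA3, as a description of the p160 pool of mRNA, was 26.4 ± 4.25 in si-NT (SD, n = 2) and 36.7 ± 5.38 after depletion (n = 4) at 72 h. At 144 h the sum was 25.4 ± 2.06 in si-NT and 39.5 ± 5.91 after depletion, between 31.48 and 44.02 TPM in the depleted libraries. The share of NCOA3 in this sum was 22.1% in si-NT and 28.1% after depletion at 144 h, so that NCOA1 and NCOA2 together stayed the larger part. Divided by NCOR1 of the same library, the sum was 0.437 in si-NT and 0.621 after depletion at 72 h, and 0.466 and 0.755 at 144 h. A ratio within a library does not depend on the scaling of that library. It did not overlap between the groups at either time point, with 0.558 as the lowest depleted value and 0.504 as the highest control value over both. Without both libraries that stood apart, the sum after depletion was 34.0 ± 0.830 TPM (SD, n = 3) at 72 h and 42.2 ± 3.03 TPM at 144 h, and the ratio 0.627 and 0.776. In these libraries p160 mRNA was thus higher relative to NCOR1 mRNA with either siRNA, and protein was not measured. The ratio also carries differences in NCOR1. With siRNA-3 the log2 fold change of NCOR1 was -0.22 at 72 h and -0.24 at 144 h. With siRNA-2 it was 0.13 and 0.12, and NCOR1 passed the limma test with neither siRNA.

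**Figure D2:**
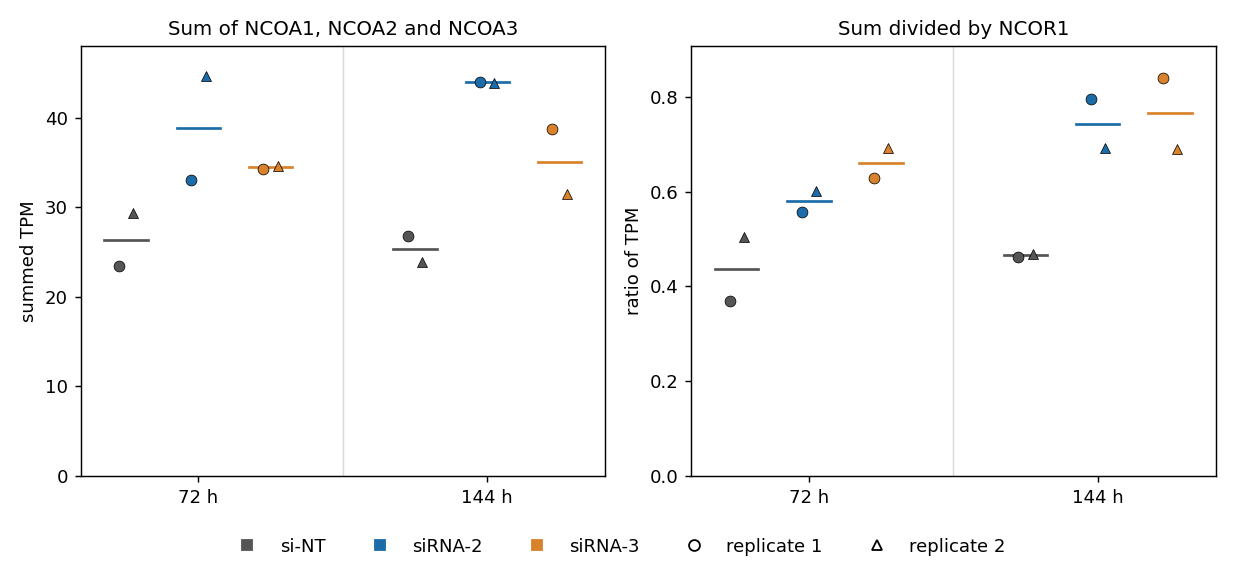
Summed TPM of NCOA1, NCOA2 and NCOA3 (left) and that sum divided by the TPM of NCOR1 (right), both y axes from 0, by time point and siRNA, with a point for each library and a line at the mean of each pair. The ratio runs from 0.37 to 0.504 in the 4 si-NT libraries and from 0.558 to 0.841 in the depleted libraries.

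KDM1A (LSD1; ENSG00000004487.11, GRCh37 chr1:23345936-23410182, + strand) was the coregulator that fell. At 72 h it was at 76.62 and 65.70 TPM in si-NT and at 60.35, 57.64, 63.31 and 69.45 TPM in the depleted libraries, which overlapped with the controls. The change at 72 h was -0.07 without si-NT replicate 1 and -0.29 without replicate 2. KDM1A at 144 h was at 76.18 and 81.15 TPM in si-NT, at 42.88 and 50.70 TPM with siRNA-2 and at 51.78 and 53.73 TPM with siRNA-3. Every depleted library at 144 h was below both controls. The log2 fold change was -0.18 (adjusted p = 0.513) at 72 h and -0.65 (SE 0.11, adjusted p = 0.00209, limma) at 144 h, and at 144 h it was -0.69 (adjusted p = 0.00311) without both libraries that stood apart. The fall at 144 h passed the test in each of the 23 alternative analyses, with changes between -1.05 and -0.58. Proliferation genes moved with it at 144 h: 10 of 12 were called lower, against 10.8% of all genes. Their summed TPM was then 1432.92 to 1634.71 in si-NT and 819.33 to 1097.59 after depletion. At 72 h 0 of 12 were called, against 1.13% of all genes called higher and 0.557% called lower. The si-NT libraries of 72 h stood far apart in this sum, at 814.44 and 1423.18 TPM, with replicate 2 the lower. The depleted libraries of 72 h lay between them, at 876.81 to 1215.81 TPM. The part of proliferation in the KDM1A result was not tested, and in bulk RNA fewer cells that express a gene and less RNA per cell cannot be told apart.

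MED1 (ENSG00000125686.7, GRCh37 chr17:37560538-37607525, - strand) was lower in every depleted library at 144 h without passing the test. It was at 25.98 and 23.36 TPM in si-NT and at 21.84, 20.25, 21.26 and 16.15 TPM after depletion, a log2 fold change of -0.31 (95% confidence interval -0.60 to -0.01, adjusted p = 0.119, limma). At 72 h it was at 22.61 and 26.27 TPM in si-NT and at 23.48, 29.10, 25.59 and 24.00 TPM after depletion, and the groups overlapped (log2 fold change 0.06, adjusted p = 0.891). Without both libraries that stood apart it was -0.0019 at 72 h (adjusted p = 0.999) and -0.21 at 144 h (adjusted p = 0.137, limma). With median-of-ratios size factors in place of the TPM scale, MED1 passed the test at 144 h (-0.34, adjusted p = 0.0322). All depleted libraries were below si-NT for 2 of the 8 coregulators at 144 h, MED1 and KDM1A, against 22.5% of all genes, and for 0 of 8 at 72 h against 6.93%. No coregulator lay below si-NT at both time points, against 4.78% of all genes.

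The acetyltransferases did not pass the test at either time. EP300 (p300; ENSG00000100393.9, GRCh37 chr22:41488596-41576081, + strand) was at 11.39 and 16.34 TPM in si-NT and at 14.96, 21.39, 14.68 and 13.57 TPM in the depleted libraries at 72 h (log2 fold change 0.21, adjusted p = 0.748). At 144 h it was at 13.85 and 12.33 TPM in si-NT and at 16.10, 16.41, 14.07 and 9.66 TPM after depletion (0.07, adjusted p = 0.846, limma). EP300 thus overlapped between the groups at both times, and at 144 h the depleted values lay on both sides of the controls. Without both libraries that stood apart the change was 0.07 (adjusted p = 0.882) at 72 h and 0.23 (adjusted p = 0.278, limma) at 144 h. CREBBP (CBP; ENSG00000005339.8, GRCh37 chr16:3775055-3930714, - strand) was at 14.04 and 18.54 TPM in si-NT and at 14.61, 22.18, 16.89 and 16.45 TPM after depletion at 72 h (0.10, adjusted p = 0.888). At 144 h CREBBP was at 17.83 and 13.95 TPM in si-NT and at 15.02, 16.77, 13.24 and 9.88 TPM after depletion (-0.21, adjusted p = 0.503, limma). In both genes the extreme values, 21.39 and 22.18 TPM at 72 h and 9.66 and 9.88 TPM at 144 h, came from the libraries that stood apart. Without both of them CREBBP was at -0.02 (adjusted p = 0.983) at 72 h and at -0.07 (adjusted p = 0.767, limma) at 144 h.

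NCOR1 (ENSG00000141027.16, GRCh37 chr17:15932379-16121499, - strand), the corepressor of the set, kept overlapping groups. At 72 h it was at 63.35 and 58.35 TPM in si-NT, at 59.30 and 74.41 TPM with siRNA-2 and at 54.44 and 50.01 TPM with siRNA-3 (log2 fold change -0.05, adjusted p = 0.936). At 144 h it was at 57.91 and 51.00 TPM in si-NT, at 55.31 and 63.44 TPM with siRNA-2 and at 46.02 and 45.55 TPM with siRNA-3 (-0.06, adjusted p = 0.825, limma). Each siRNA-2 library was above each siRNA-3 library at both times. The change of NCOR1 without both libraries that stood apart was -0.16 (adjusted p = 0.654) at 72 h and 0.003 (adjusted p = 0.992, limma) at 144 h. NCOR1 has pseudogene copies, 3 of which are in the table and reach at most 0.19 TPM, and how reads shared with them were counted is not given in the sources used here. Genes on the other strand overlap exons of NCOR1 (PIGL, up to 12.08 TPM, and TTC19, up to 41.36 TPM), NCOA3 (SULF2, up to 0.41 TPM) and MED1 (ENSG00000266469, up to 3.99 TPM). The kit marks strand but the strand setting of the counting is not given in the sources used here, so these 3 genes carry that uncertainty.

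**Figure D3:**
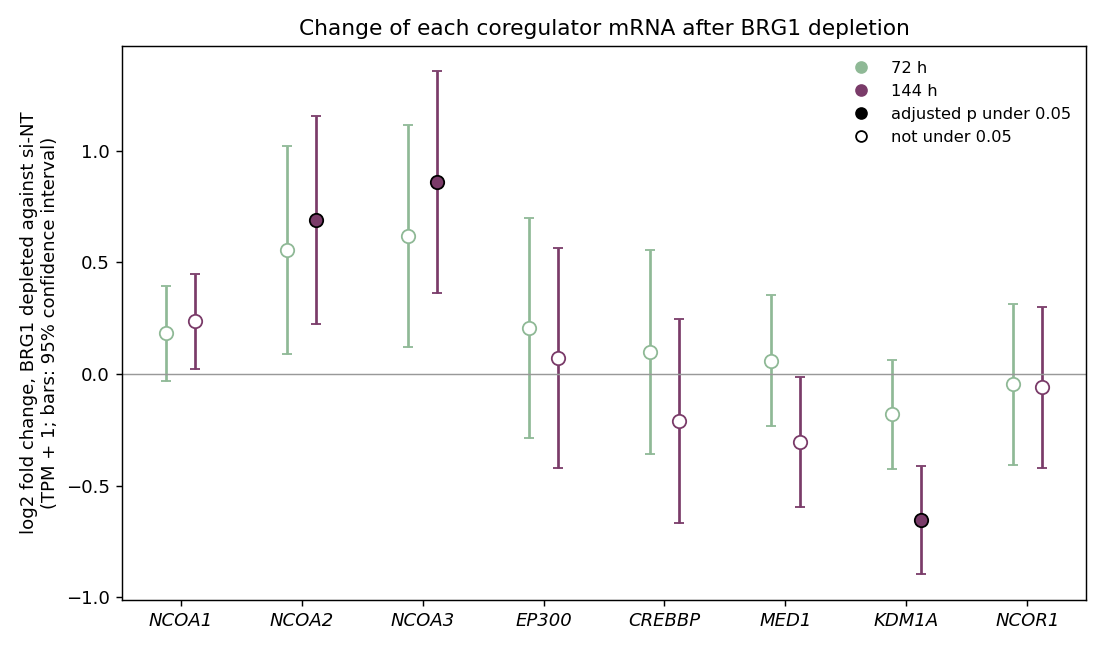
Log2 fold change of BRG1 depleted libraries against si-NT on the log2(TPM + 1) scale (y axis) for the 8 coregulators (x axis) at 72 h and 144 h, with bars for the 95% confidence interval and filled points where limma's adjusted p was under 0.05. NCOA2, NCOA3 and KDM1A pass at 144 h, at 0.69, 0.86 and -0.65, and no gene passes at 72 h.

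Whether the change grew between the time points was tested directly. None of the 8 passed the limma test of the difference between the changes at 144 h and at 72 h, 1 had an unadjusted p under 0.05, and 0.0184% of all genes passed. That gene was KDM1A, whose change at 144 h was lower by 0.47 on the log2 scale (95% confidence interval of the difference -0.82 to -0.13, adjusted p = 0.312). For NCOA3 the difference was 0.24 (-0.46 to 0.94) and for NCOA2 0.14 (-0.52 to 0.80), so neither growth nor constancy of their rise was shown. Depleted libraries at 144 h against those at 72 h gave no call among the 8 by limma, 2 at an unadjusted p under 0.05 (KDM1A, -0.33, adjusted p = 0.0665, and MED1, -0.35, adjusted p = 0.0924), and 4.27% of all genes called.

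Both siRNAs were then compared with si-NT and with each other in a fit with a group for each siRNA and time point. NCOA3 rose with siRNA-2 at 72 h (log2 fold change 0.82, adjusted p = 0.0448) and at 144 h (1.16, adjusted p = 0.00188), and with siRNA-3 at 144 h (0.56, adjusted p = 0.0381), while siRNA-3 at 72 h gave 0.42 (adjusted p = 0.311, limma). KDM1A fell at 144 h with siRNA-2 (-0.74, adjusted p = 0.00266) and with siRNA-3 (-0.57, adjusted p = 0.00967, limma). NCOA2 rose at 144 h with siRNA-2 (0.88, adjusted p = 0.0303), and siRNA-3 gave 0.50 (adjusted p = 0.171, limma). Of the 8, siRNA-2 gave 1 call at 72 h and 3 at 144 h, against 1.57% and 21.3% of all genes, and siRNA-3 gave 0 (2 at an unadjusted p under 0.05) and 2, against 0.655% and 20.2%. Without both libraries that stood apart, which leaves 1 library in each of those siRNA groups, the calls of NCOA3 with siRNA-2 at 72 h (0.61, adjusted p = 0.176) and of KDM1A with siRNA-3 at 144 h (-0.59, adjusted p = 0.0599) were lost, and NCOA3 with siRNA-3 at 144 h was at 0.67 (adjusted p = 0.0446). These comparisons share their si-NT libraries.

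A difference between the siRNAs did not pass the test for any of the 8, with 2 at an unadjusted p under 0.05 at each time point, and 0.141% of all genes passed at 72 h and 0.331% at 144 h (limma). These were NCOA3, lower with siRNA-3 by 0.41 at 72 h (adjusted p = 0.548) and by 0.61 (SE 0.16) at 144 h (adjusted p = 0.182), and NCOR1, lower by 0.34 (adjusted p = 0.52) and by 0.36 (adjusted p = 0.284). SMARCA4 itself differed by -0.14 at 72 h and -0.17 at 144 h (95% confidence interval -0.60 to 0.26), with no call. For NCOA2 at 144 h the difference was -0.38 (-0.91 to 0.16) and for KDM1A 0.17 (-0.08 to 0.43), intervals that leave room for a difference in either direction.

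**Figure D4:**
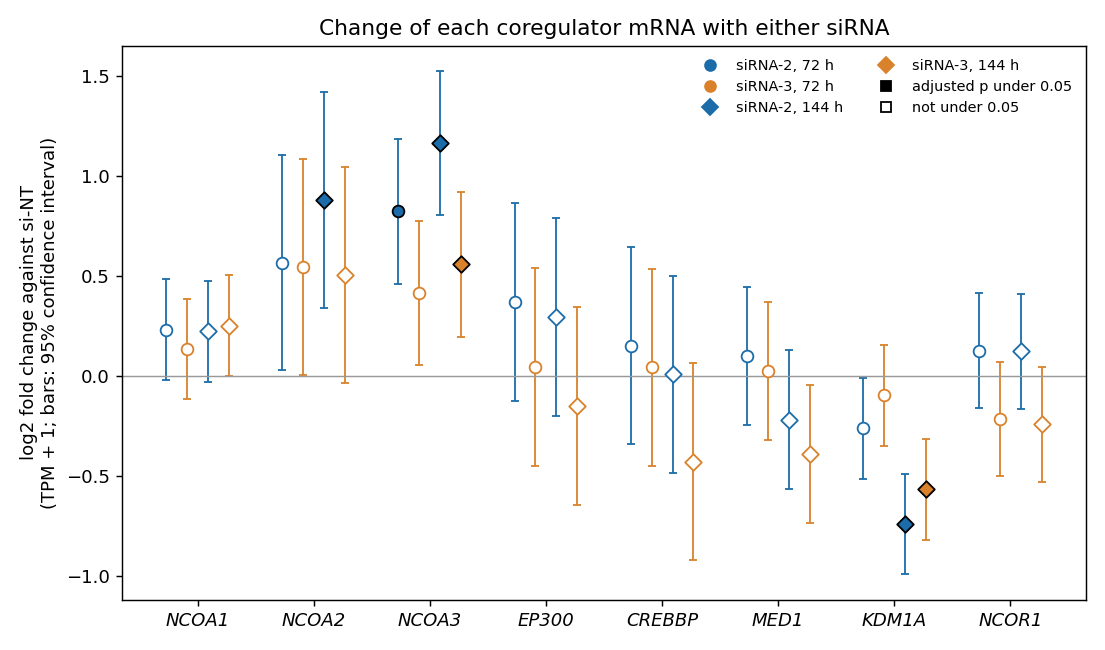
Log2 fold change against si-NT on the log2(TPM + 1) scale (y axis) of the 8 coregulators (x axis) with siRNA-2 and with siRNA-3 at 72 h and 144 h, with bars for the 95% confidence interval and filled points where limma's adjusted p was under 0.05. NCOA3 lies higher with siRNA-2 than with siRNA-3 at both times, and KDM1A passes with each siRNA at 144 h.

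FOXA1, a pioneer factor that opens chromatin for the receptor, was at 170.81 and 183.31 TPM in si-NT and at 176.53, 239.87, 189.48 and 194.39 TPM after depletion at 72 h (log2 fold change 0.17, adjusted p = 0.597). At 144 h FOXA1 was at 184.16 and 177.37 TPM in si-NT and at 196.58, 194.18, 169.77 and 160.41 TPM after depletion (-0.01, adjusted p = 0.966, limma). The groups overlapped at both time points.

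Other coregulators of nuclear receptors were taken from wider lists. Of 97 genes, 94 were tested, and at 144 h 5 were called higher and 10 lower, against 13.6% and 10.8% of all genes, with a median log2 fold change of 0.03 beside 0.03 over all genes, while at 72 h none were called by limma and 6 had an unadjusted p under 0.05. The same shares of all genes are the background of the lists that follow. Among 27 coactivators tested, 3 were higher and 4 lower at 144 h. KAT2B (PCAF), the acetyltransferase that joins p160 complexes, rose from 3.51 and 3.97 TPM in si-NT to between 6.41 and 8.24 TPM (log2 fold change 0.80, adjusted p = 0.00639, limma). PRMT1, an arginine methyltransferase recruited by p160 proteins, fell from 271.54 and 289.52 TPM to between 178.73 and 210.50 TPM (-0.50, adjusted p = 0.00444), and its relative PRMT2 rose from 56.33 and 56.16 TPM to between 74.88 and 81.21 TPM (0.47, adjusted p = 0.00356, limma).

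Among 19 corepressors tested, 1 was higher and 4 were lower at 144 h, against 13.6% and 10.8% of all genes. HEY1, a transcriptional repressor that acts downstream of Notch and binds p160 proteins, rose from 0.93 and 0.75 TPM to between 1.86 and 2.70 TPM (0.86, adjusted p = 0.00322, limma). Its level was near the floor. Among si-NT libraries only replicate 1 at 72 h reached 1 TPM, at 1.1 TPM. HEY1 thus passed the filter through the depleted libraries. PA2G4 (EBP1) and the deacetylase HDAC2 fell, by 0.56 (adjusted p = 0.00961) and by 0.48 (adjusted p = 0.00984, limma) on the log2 scale. Of the 31 Mediator subunits besides MED1, 0 were higher and 1 was lower, CCNC (cyclin C of the kinase module; -0.44, adjusted p = 0.0134, limma). Of 17 other histone lysine demethylases, 1 was higher, KDM4B (0.63, adjusted p = 0.0172), a demethylase of H3 that coactivates the receptor, and 1 lower, KDM2B (-0.61, adjusted p = 0.0179, limma).

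**Figure D5:**
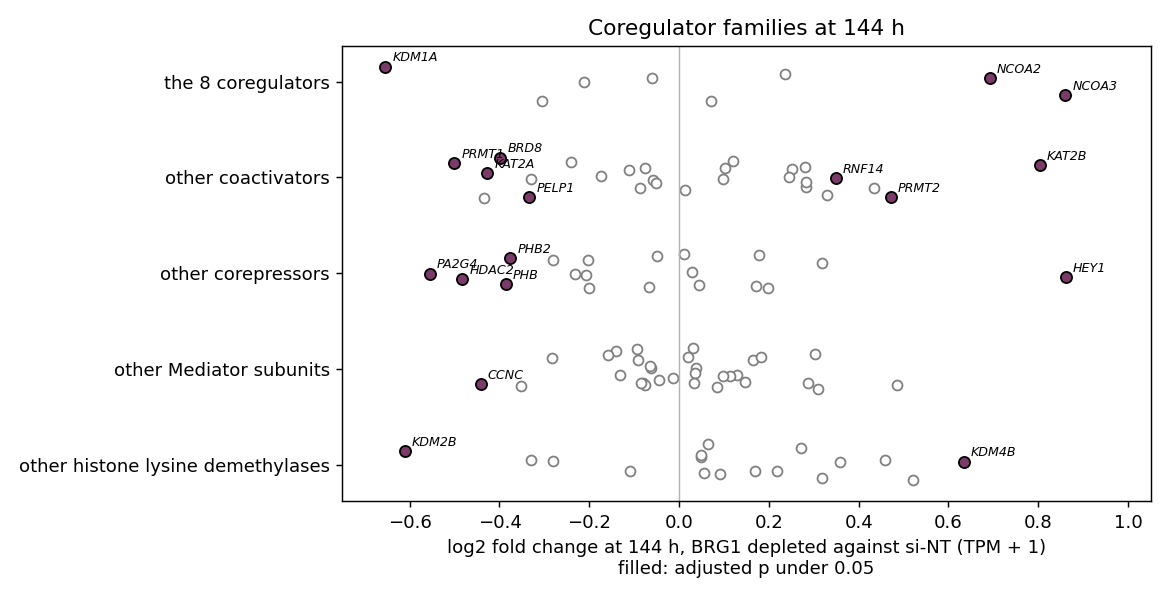
Log2 fold change at 144 h of BRG1 depleted libraries against si-NT on the log2(TPM + 1) scale (x axis) for the 8 coregulators and 4 lists of other coregulators (y axis, points spread for clarity), filled and named where limma's adjusted p was under 0.05. Of the 94 other coregulators tested, 79 were not called, with calls on both sides for coactivators, corepressors and demethylases.

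Genes with the profile most like each coregulator were found over the 12 libraries among 10981 genes with a mean of at least 5 TPM, by the root mean square difference of centred log2 values. NCOA3 was nearest to IL1R1 at a difference of 0.09, NCOA2 to SLC30A4 at 0.10 and NCOA1 to DDX41 at 0.05. KDM1A was nearest to LDHB at 0.07, CREBBP to NF1 at 0.09 and NCOR1 to RTN4RL2 at 0.09. EP300 and MED1 were nearest to genes listed without a symbol (0.07 and 0.04). The nearest coregulator of NCOA2 was NCOA3 and the reverse, at 0.22, and that of CREBBP was MED1 at 0.13. Many other genes were closer: among the genes compared these coregulators ranked 369 for NCOA2, 241 for NCOA3 and 45 for CREBBP. These are descriptions of values that share libraries and their composition.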

How the data were processed

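RNA-seq of LNCaP cells was analysed from the deposited TPM table. Per the labels and methods, the authors added ERCC spike-ins, made stranded paired-end mRNA libraries and trimmed reads with Trim Galore (0.11.2, per the submitters' processing notes). They aligned reads to hg19 (GRCh37) with STAR (2.4.0j), counted them with featureCounts and deposited TPM per gene, with 92 spike-ins included in the total of each library. The methods also state that counts were normalised to the spike-ins. How this entered the deposited TPM is not given in the sources used here. The tool that made TPM is not given in the sources used here.

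TPM was taken to log2 after adding 1. The 16337 genes that reached 1 TPM in 2 or more libraries entered limma 3.58.1 in R 4.3.3 (lmFit, then eBayes with a trend, Benjamini-Hochberg adjustment, threshold 0.05) in 4 groups sharing 1 estimate of the spread, or in 6 groups for the siRNAs. Fold changes on this scale understate those of low genes. The steps were tested on simulated data. Gene symbols and positions were read from the GRCh37 version of GENCODE release 44, and 140 of 141 listed symbols matched. Figures were drawn with matplotlib 3.10.9.

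The members and lists were chosen with earlier results of these data known. The genes named are SMARCA4, the 8 coregulators, FOXA1, up to 3 genes called per list of other coregulators, ranked by the size of the change at 144 h, and the gene nearest in profile to each member. Some genes of the rule are not reported here. The table numbers the siRNAs 2 and 3 where the labels number them 1 and 2, and 1 library at 72 h is labelled with both numbers, which leaves its group unchanged. Alternatives were a pseudocount of 0.1, no filter, a mean of at least 5 TPM, scaling to ERCC, median-of-ratios size factors, the replicate number as a block, the 6 libraries of a time point alone, 6 groups, the si-NT libraries of 72 h and 144 h as a single group, each library left out in turn and, chosen after seeing the data, both libraries that stood apart left out.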

Additional observations from a re-analysis of the deposited data

How the results depend on the processing

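Scaling to the ERCC spike-ins moved the median change over all tested genes to -0.114 (72 h) and -0.312 (144 h), and under it 0 members were called higher at 144 h (NCOA2 0.32, adjusted p = 0.607; NCOA3 0.51, adjusted p = 0.393), as were 0 other coregulators higher and 0 lower, while over all genes 138 were higher and 614 lower in place of 2222 and 1761. Relative to that median NCOA3 was at 0.82, NCOA2 at 0.63 and KDM1A at -0.74, beside 0.83, 0.67 and -0.68 relative to the median on the TPM scale. The shift was uneven: at 144 h the median over all genes was -0.5547 with siRNA-3 and -0.0724 with siRNA-2. Spike-ins made up 0.805% and 1.336% of TPM in si-NT at 144 h and 1.966% in replicate 2 of siRNA-3. In the other depleted libraries of 144 h they made up 1.044% to 1.325%. ERCC scaling also reversed the uncalled changes of CREBBP (-0.0887) and MED1 (-0.1289) at 72 h and of NCOA1 (-0.14) and EP300 (-0.30) at 144 h. Size factors gave 2 members lower at 144 h, MED1 added, and a MED1 change of -0.0048 at 72 h. Without a filter 1 member was higher at 144 h. With si-NT of both time points combined, 1 member (NCOA2) and 2 other coregulators were higher at 72 h, 2 members lower and 10 other coregulators higher at 144 h, and NCOR1 at 72 h was at 0.0341. With both libraries that stood apart left out, 12 other coregulators were higher at 144 h, and CREBBP (-0.016) and MED1 (-0.0019) at 72 h and NCOR1 (0.003) at 144 h changed sign.

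With each library left out in turn, members higher at 144 h ranged from 0 (without either si-NT library of that time, where 6.55% and 4.6% of all genes were called higher in place of 13.6%) to 2, and other coregulators from 2 to 8 higher and 0 to 10 lower at 144 h and from 0 to 1 higher at 72 h. Over these fits NCOR1 ranged from -0.156 to 0.0317, EP300 from -0.0368 to 0.448, CREBBP from -0.092 to 0.286 MED1 from -0.0438 to 0.164, NCOA2 from 0.299 to 0.812 and KDM1A from -0.289 to -0.07 at 72 h, and NCOR1 from -0.153 to 0.0298, CREBBP from -0.378 to -0.0449 and EP300 from -0.0066 to 0.23 at 144 h. With 1 si-NT library left, it was assumed to vary like the other groups. The cause of these changes was not tested.

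Replicate numbers are shared between groups, but deviations of same-numbered libraries correlated between -0.229 and 0.3, so the numbers were not taken to pair the libraries. With the replicate number as a block, 2 members were higher and 1 lower at 144 h and 0 were called at 72 h, with NCOA2 at an adjusted p of 0.0449 (limma), and no member call changed. The direction of SMARCA4, NCOA2, NCOA3 and KDM1A was kept under all 23 alternatives at both time points. TPM keeps no depth, so no limit from counting can be given.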
